A study of Mus musculus with 22 samples.

Results

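The 42 genes described here encode ion exchangers, cotransporters and their partners of the Slc4, Slc9, Slc12 and Slc26 solute carrier families. They are all the genes with a symbol that begins with Slc4a, Slc9a, Slc12a or Slc26a and a digit, and were taken by name from the 24421 genes counted, without regard to their values. By role they are 9 sodium-proton exchangers, 2 scaffold proteins that carry an exchanger's name (Slc9a3r1 and Slc9a3r2), 11 anion exchangers, 10 bicarbonate transporters, the adaptor gene Slc4a1ap and 9 cation-chloride cotransporters. The roles of the transporters were given by family, so that a single member, such as Slc4a11, Slc12a8 or Slc12a9, need not carry what its role names. RNA was sequenced from 22 libraries of cells sorted by flow cytometry from the colon of male, wild type, untreated C57BL/6N mice of 5 to 7 weeks. All cells were live, Epcam+, Cd31- and Cd45-, so that the gate itself selected for epithelium and against cells with Cd31 or Cd45 on their surface. The 6 cell types were stem cells (Cd44 highest, Cd24 low, Ckit-, n = 3), absorptive progenitors (AbsPro, Cd44 medium to high, Cd24 low, Ckit-, n = 3), secretory progenitors with deep crypt secretory and goblet cells (SecPDG, Cd44 high, Cd24 medium, Ckit medium by the labels, with Cd44 given as medium in the study's text, n = 4), tuft cells (Ckit+, Cd24 high, n = 5), enterocytes (Cd44 low or absent, Cd24-, n = 5) and enteroendocrine cells (EECs, Cd44 low or absent, Cd24+, n = 2). Each stem cell or AbsPro library came from a single mouse, whereas the other libraries pooled several mice each, with the most mice for EECs, and sorts were pooled where cells were few.

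Colon epithelium takes up sodium chloride through pairs of exchangers on the surface that faces the gut lumen, a sodium-proton exchanger beside a chloride-bicarbonate exchanger. It secretes fluid by the opposite arrangement: a cotransporter on the blood side of the cell brings in chloride, which leaves through channels on the luminal side. Bicarbonate transporters feed both processes and hold the cell's pH, and stem cells at the crypt base give rise to an absorptive line that ends in enterocytes and a secretory line that includes goblet, tuft and enteroendocrine cells.

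Libraries held 4122122 to 22462518 counts on genes, with enterocytes at 5950619 to 12966128 and EECs at 4122122 and 13132315, so that low values are least precise there. Between 40.85 and 89.74% of all counted reads lay outside genes, with the highest shares in enterocytes (66.8 to 83.08%) and EECs (64.54 and 89.74%). The marker lists of stem, tuft and EEC cells were highest in every library of their own cell type, with 19230 to 24290, 24070 to 64910 and 630900 to 1812000 normalized counts summed, against at most 10660, 7832 and 28590 elsewhere (the tuft list was read from 4 of its 5 genes). The 5 enterocyte markers did not single out enterocytes, because they reached 68400 to 104900 in AbsPro, 49730 to 76220 in enterocytes, and 22910 in EEC 1 and 138100 in EEC 2. The 5 goblet and SecPDG markers were also high in tuft cells, at 570700 to 1131000 against 677500 to 2266000 in SecPDG. The EEC pair correlated with a Spearman rho of 0.729 across genes, while pairs of libraries of the other cell types reached 0.874 to 0.973. Values are therefore given with and without each EEC library where a call rests on one. In bulk RNA of sorted cells, fewer cells of a type and less RNA per cell cannot be told apart, and the p-values cover only the spread between these libraries.

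Values are normalized counts, that is, counts divided by the library's total on genes after TMM scaling. A gene passed the test at a Benjamini-Hochberg adjusted p under 0.01 in edgeR's quasi-likelihood test over all 22781 genes tested, and if its mean over the 22 libraries was 50 normalized counts or more, and "rose" and "fell" are written only of such genes. Values after a comparison in parentheses are the log2 fold change with its standard error (SE) and the adjusted p of that test. Because enterocyte, EEC and some tuft libraries carried more reads outside genes, a background level was estimated from 1524 genes of the olfactory, vomeronasal and trace amine receptor, Mrgpr and keratin-associated protein families. These genes were taken as little transcribed in colon epithelium, and any that are transcribed in a cell type would raise its background level. Per kb of exon it was 2.37 to 6.98 normalized counts in enterocytes, 10.9 and 2.09 in the EEC pair and 0.648 to 3.82 in tuft cells, whereas stem cells had 0.162 to 0.289, SecPDG 0.173 to 0.674 and AbsPro 0.0374 to 0.501. For each gene this level, times its exon length, is given as a share of its mean.

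The bases just before the start of transcription are shown for 5 genes that rose in AbsPro or SecPDG over stem cells, Slc26a3 and Slc9a3 in AbsPro and Slc12a8, Slc9a3r2 and Slc4a7 in SecPDG. Each run is the 250 bases before the RefSeq start on the GRCm38.p6 build, 5′ to 3′ on the gene's own strand. They lie at chr12:31437969-31438218 (plus strand) for Slc26a3, chr13:74121163-74121412 (plus) for Slc9a3, chr16:33517078-33517327 (plus) for Slc12a8, chr17:24650306-24650555 (minus) for Slc9a3r2 and chr14:14718534-14718783 (plus) for Slc4a7. Where RefSeq has several starts, 3 for Slc12a8 and 2 for Slc9a3r2, the most upstream is shown. Capitals mark matches on either strand to 5 motifs. They are the TATA box, searched as TATAAA, the core of the site of HNF1, a factor of intestinal epithelium, searched as GTTAAT, a longer HNF1 form that overlaps it, the GC box, searched as GGGCGG, and the site of GATA factors, searched as AGATAA. The motifs were chosen after the sequences had been read.
Slc26a3: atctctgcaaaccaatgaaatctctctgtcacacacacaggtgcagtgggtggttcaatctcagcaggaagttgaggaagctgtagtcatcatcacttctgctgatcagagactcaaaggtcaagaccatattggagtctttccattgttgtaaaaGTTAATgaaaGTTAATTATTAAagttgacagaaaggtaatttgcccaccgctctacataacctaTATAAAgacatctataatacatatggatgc
Slc9a3: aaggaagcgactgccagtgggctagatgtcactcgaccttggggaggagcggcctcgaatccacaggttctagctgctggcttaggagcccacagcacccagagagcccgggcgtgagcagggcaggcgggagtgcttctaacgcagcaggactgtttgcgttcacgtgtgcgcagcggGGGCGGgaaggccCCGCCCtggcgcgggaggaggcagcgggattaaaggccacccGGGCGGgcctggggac
Slc12a8: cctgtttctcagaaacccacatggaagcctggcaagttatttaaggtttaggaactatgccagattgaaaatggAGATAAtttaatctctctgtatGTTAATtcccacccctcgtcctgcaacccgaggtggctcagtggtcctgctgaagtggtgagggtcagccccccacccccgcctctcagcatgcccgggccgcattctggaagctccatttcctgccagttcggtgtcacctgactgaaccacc
Slc9a3r2: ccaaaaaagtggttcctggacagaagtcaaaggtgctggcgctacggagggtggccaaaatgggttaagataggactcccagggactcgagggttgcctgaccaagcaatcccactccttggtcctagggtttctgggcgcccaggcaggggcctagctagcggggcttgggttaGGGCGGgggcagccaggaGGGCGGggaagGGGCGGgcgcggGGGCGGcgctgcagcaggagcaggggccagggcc
Slc4a7: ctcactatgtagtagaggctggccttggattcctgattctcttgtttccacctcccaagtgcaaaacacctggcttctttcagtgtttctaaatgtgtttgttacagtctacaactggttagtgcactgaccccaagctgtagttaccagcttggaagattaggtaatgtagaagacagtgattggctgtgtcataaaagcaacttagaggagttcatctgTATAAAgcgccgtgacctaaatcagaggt
Slc26a3 held a TATA box, an HNF1 core and the longer HNF1 form, and the longer form was found in 20 of the 32851 RefSeq promoters of this length (0.0609%). The core, present in 6.43% of all promoters, also occurred in Slc12a8 and in no other of the 30 exchanger genes that matched the table. Slc9a3 and Slc9a3r2, with 67.6 and 66.4% G and C against a median of 52.4% over all promoters, held 3 and 4 GC boxes, a motif of 32.7% of promoters and of 16 of the 30 genes. Slc4a7 held a TATA box (12.4% of promoters), and Slc12a8 a GATA site (9.99%). These matches describe letters only, and no binding was measured.

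Of the 42 genes, 33 passed the test in at least 1 of 9 comparisons and 9 in none, among them Slc9a5, Slc9a3r1, Slc26a2, Slc26a5, Slc26a7, Slc4a2, Slc4a1ap and Slc12a9. Slc26a5 and Slc26a7 had means under 50, so that they could not pass. The heat map of mean levels shows a set of genes present everywhere, among them Slc12a2, Slc4a2, Slc26a2, Slc9a3r1 and Slc12a7, and a set that was low in stem cells, AbsPro and SecPDG.

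**Figure D1:**
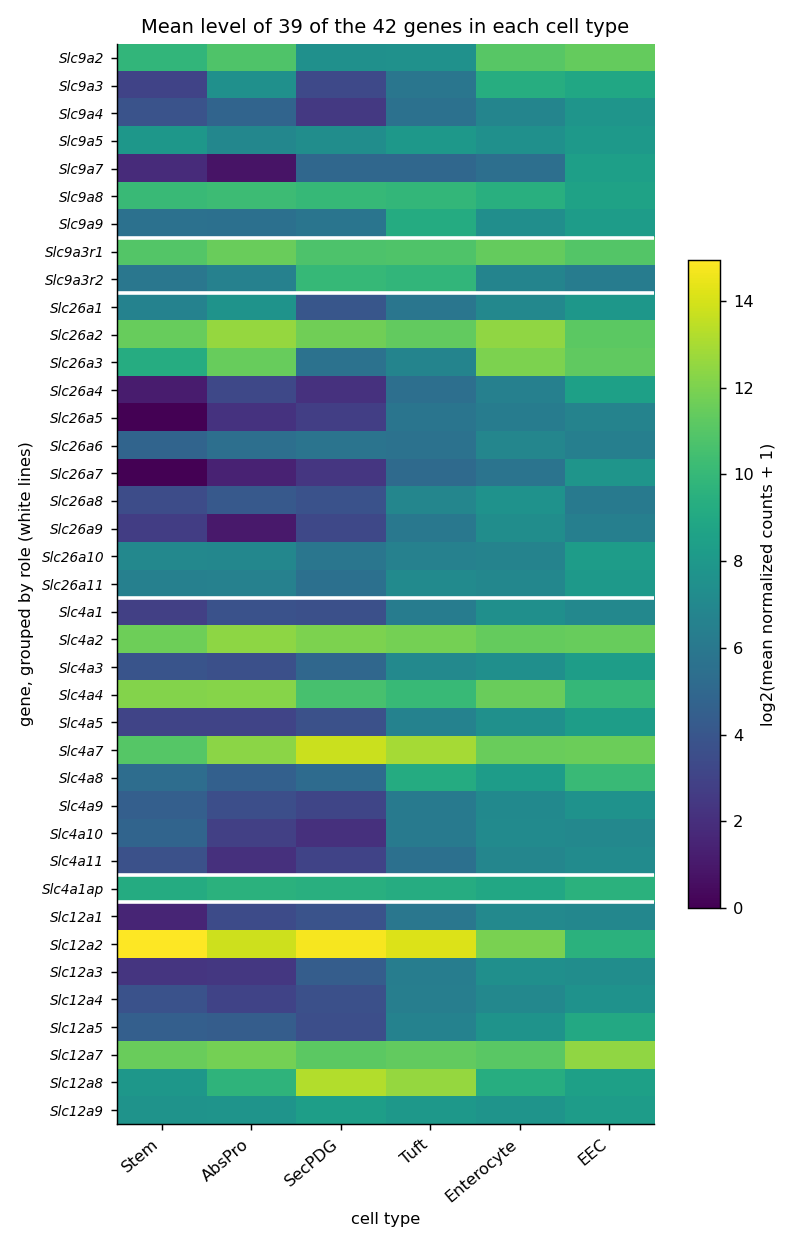
Mean level of 39 of the 42 genes (rows, grouped by role between white lines) in the 6 cell types (columns), as log2 of the mean normalized counts plus 1. Slc12a2 has the brightest cells, with a mean of 31430 normalized counts in stem cells, while Slc26a3 is bright in AbsPro (2832) and enterocytes (4042) and dark in SecPDG (49.1).

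In AbsPro compared with stem cells, the apical pair of the absorptive line was already higher: Slc9a3 and Slc26a3 rose, and no member fell. These 2 of 42 calls stand against 0.588% of all genes called (0.496% higher, 0.0922% lower, and 0.612% when only genes with an estimated background under 20% count, a limit that both passed). The median log2 fold change was 0.40 over the members and 0.00 over all genes. With edgeR's earlier quasi-likelihood fit neither gene passed (adjusted p = 0.0161 for Slc9a3 and 0.0368 for Slc26a3), with DESeq2 both did, and a fit of these cell types alone called 7 members. Without Stem 1 the call of Slc26a3 was lost (log2 fold change 1.96, adjusted p = 0.0371), and without EEC 1 the count was 5.

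In SecPDG compared with stem cells, Slc12a8, Slc9a3r2 and Slc4a7 rose, and Slc26a3, Slc9a2 and Slc4a4 fell, 6 of 42 against 4.99% of all genes (3.39% higher, 1.59% lower, 5.02% with estimated background under 20%, which all 6 passed). With library totals in place of TMM factors, 3 members rose and 5 fell, and the share of calls over all genes that were higher went from 68.05% to 44.23%. The members' median log2 fold change was 0.07, against 0.00 over all genes.

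In tuft cells compared with stem cells, 11 members rose and 3 fell, 14 of 42 against 12.3% of all genes (8.07% higher, 4.24% lower). Slc12a8, Slc9a3r2, Slc9a9, Slc4a8 and Slc4a7 were among those that rose, and Slc26a3, Slc9a2 and Slc4a4 fell, as in SecPDG. The estimated background was under 20% for 13 of the 14 (11.6% of all genes). The median log2 fold change was 1.78 over the members and 0.84 over all genes, and increases are to be read against the latter. The earlier quasi-likelihood fit kept 7 of the 14, those with the 3 decreases and Slc12a8, Slc9a3r2, Slc9a9 and Slc4a8, and leaving out Stem 2 or Stem 3 left 9 members called. The same 7 calls held whichever library was left out, and each of the other 7 was lost without at least 1 library.

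In enterocytes compared with stem cells, 22 members rose and only Slc12a2 fell, 23 of 42 against 22.7% of all genes (11.3% higher, 11.5% lower). Of those that rose, Slc26a3, Slc9a2, Slc9a3 and Slc12a8 had means of 644 or more in enterocytes, and the other 18 had means of 303 or less and are described with their background further on. The estimated background was under 20% for 20 of the 23 (20.2% of all genes). The median log2 fold change was 1.90 over the members and 1.17 over all genes, and 1.72 over all genes with DESeq2's size factors. The higher share of calls over all genes was 49.6% with TMM factors, 75.46% with size factors and 71.02% with library totals. The earlier fit kept 9 of the 23, and without Stem 2 or Stem 3 the count was 15. Whichever library was left out, 11 of the 23 calls held (Slc26a3, Slc9a3, Slc12a2, Slc12a3, Slc12a5, Slc4a1, Slc4a3, Slc4a5, Slc4a8, Slc26a8 and Slc26a9), and each of the other 12 was lost without at least 1.

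In EECs compared with stem cells, 17 members rose and 3 fell (Slc12a2, Slc4a4 and Slc9a8), 20 of 42 against 20.4% of all genes (11.3% higher, 9.13% lower). The estimated background was under 20% for 18 of the 20 (19.2% of all genes), and the median log2 fold change was 1.86 against 0.68 over all genes. With size factors the higher share of all calls moved from 55.27% to 77.4%. Without EEC 1, 10 members passed, 7 of them among the 20, and without EEC 2, 24 passed, 17 of them among the 20. The calls that held whichever library was left out were those of Slc4a4, Slc4a8, Slc9a3 and Slc12a2. A fit of these cell types alone called 8, and the earlier fit kept 14 of the 20.

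Along the absorptive line, 19 members differed between enterocytes and AbsPro, 17 higher and 2 lower, among the latter Slc12a2, against 16.6% of all genes (8.68% higher, 7.97% lower). The estimated background was under 20% for 16 (14.3% of all genes). The median log2 fold change, 0.99, was close to the 0.98 of all genes, and the higher share of all calls was 52.15% with TMM factors, 83.47% with size factors and 80.23% with library totals. The earlier fit kept 4 of the 19 calls and DESeq2 17, and 11 held whichever library was left out.

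Along the secretory line, 3 members were higher in tuft cells than in SecPDG (Slc9a9, Slc4a8 and Slc26a8), against 3.42% of all genes (3.07% higher, 0.351% lower, 3.23% with estimated background under 20%, which all 3 passed). The median log2 fold change was 1.44 over the members and 0.72 over all genes. The calls of Slc9a9 and Slc4a8 held whichever library was left out, whereas that of Slc26a8 was lost without any of 12 libraries (adjusted p up to 0.0461), with DESeq2 (adjusted p = 0.0114) and with the earlier fit (adjusted p = 0.0857). DESeq2 called 9 members here, an adjusted p under 0.05 gave 14, a fit of these cell types alone 5, and leaving out Tuft 5 gave 9, EEC 2 8 and EEC 1 5.

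Between EECs and SecPDG, 23 members were higher and 5 lower (Slc12a2, Slc12a8, Slc9a3r2, Slc4a7 and Slc9a8), 28 of 42 against 21.7% of all genes (11.6% higher, 10.1% lower). The estimated background was under 20% for 25 of the 28 (20.6% of all genes), and the median log2 fold change was 2.69 against 0.76 over all genes. The higher share of all calls was 53.63% with TMM factors, 74.54% with size factors and 71.51% with library totals. Without EEC 1 the count was 10, and the calls of Slc4a8, Slc9a2, Slc9a3, Slc9a3r2, Slc12a2, Slc12a8 and Slc26a3 held whichever library was left out. A fit of these cell types alone gave 18, and the earlier fit kept 15 of the 28.

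Between the progenitors, AbsPro was higher than SecPDG in 6 members (among them Slc26a3, Slc9a3, Slc26a1, Slc9a2 and Slc4a4) and lower in 2 (Slc12a8 and Slc9a3r2), 8 of 42 against 3.72% of all genes (1.73% higher, 2.0% lower, 3.77% with estimated background under 20%, which all 8 passed). The median log2 fold change was 0.17 over the members and 0.00 over all genes. All 8 passed with DESeq2 too, edgeR's earlier fit kept all but Slc26a1, and a fit of the progenitors alone called 13. With library totals the higher share of all calls went from 46.34% to 59.55%.

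Among the sodium-proton exchangers, Slc9a3 (NHE3, the main apical sodium-proton exchanger of intestinal absorption, chromosome 13, 74121457 to 74169442) was highest in enterocytes and EECs. It stood at 0, 5.41 and 15.7 normalized counts in the 3 stem cell libraries and at 199, 108 and 243 in AbsPro, and enterocytes had 572, 777, 559, 527 and 794.5. SecPDG had 0, 27.6, 2.67 and 5.17, tuft cells 1.29, 57.3, 144, 72.9 and 10.6 and EECs 380.1 and 571. Every AbsPro library lay above every stem cell and SecPDG library, and every enterocyte library above every AbsPro library. The log2 fold change from stem cells was 4.62 ± 0.79 SE, adjusted p = 1.41e-04 in AbsPro and 6.45 ± 0.64 SE, adjusted p = 5.75e-12 in enterocytes. From AbsPro to enterocytes it was 1.82 ± 0.38 SE, adjusted p = 2.23e-04, which DESeq2 did not call (adjusted p = 0.0192) nor the earlier fit (adjusted p = 0.0744). In tuft cells Slc9a3 did not pass (2.86 ± 0.96 SE, adjusted p = 0.0193), and the libraries spread from 1.29 to 144.

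Slc9a2 (NHE2, a further apical exchanger) was present in every cell type but lower in SecPDG and tuft cells. Stem cells had 1108, 743 and 881.5 normalized counts, AbsPro 1855, 1604 and 1952 and enterocytes 2148, 2633, 1776, 2504 and 1794. SecPDG had 176, 164, 133 and 252.5 and tuft cells 288, 119, 234, 152 and 163, so that neither overlapped with stem cells. Slc9a2 fell from stem cells to SecPDG (-2.33 ± 0.37 SE, adjusted p = 5.09e-06) and to tuft cells (-2.26 ± 0.35 SE, adjusted p = 1.68e-06) and rose in enterocytes (1.26 ± 0.31 SE, adjusted p = 9.05e-04), the latter not without Stem 2 (adjusted p = 0.0164) or Stem 3 (adjusted p = 0.0116). EEC 1 had 1211 and EEC 2 4208, and the increase over stem cells (1.59 ± 0.37 SE, adjusted p = 4.48e-04) was not called without EEC 2 (log2 fold change 0.41), the library with the higher enterocyte markers, whose part in the result was not tested.

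Slc9a8 (NHE8, of the Golgi and apical membranes) had a mean of 1109 ± 350 (SD, n = 3) in stem cells, and the EEC mean was 383 ± 211.5 (SD, n = 2) normalized counts, a decrease (-1.48 ± 0.43 SE, adjusted p = 0.00377) that was lost without EEC 1 or Stem 1.

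**Figure D2:**
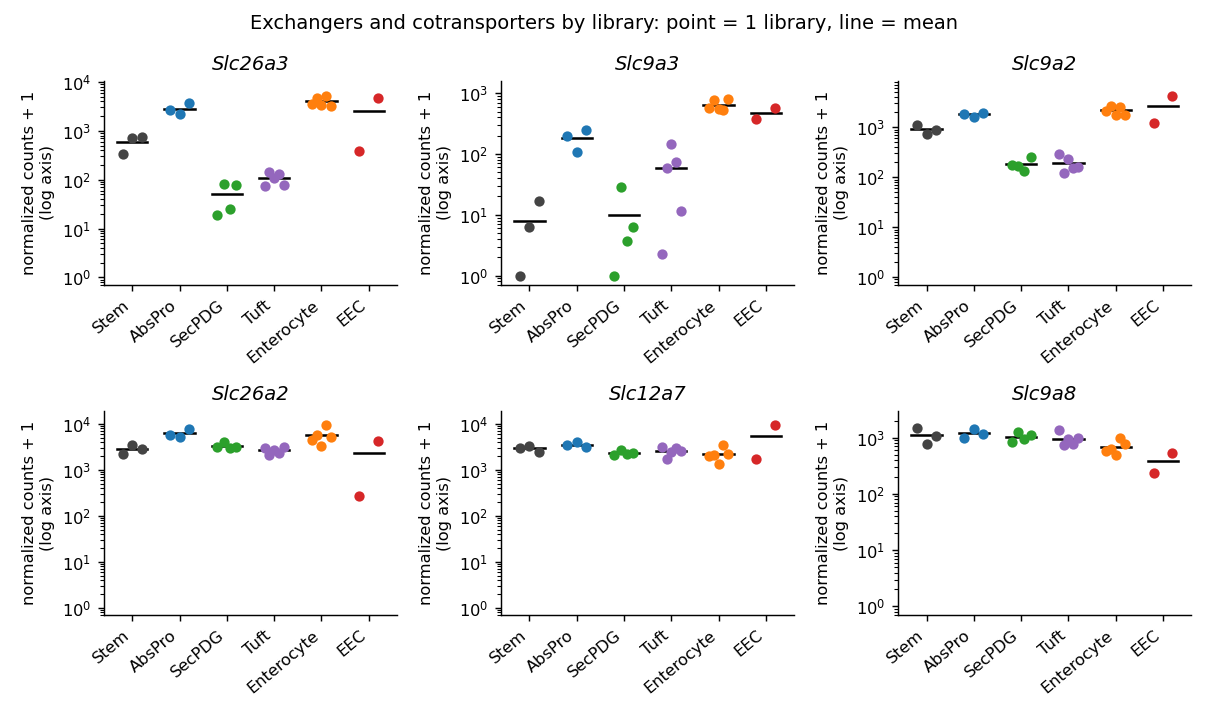
Normalized counts plus 1 on a log axis of 6 exchangers and cotransporters in each of the 22 libraries, by cell type, with points for libraries and lines for means. Slc26a3, Slc9a3 and Slc9a2 are low in SecPDG and tuft cells and high in AbsPro and enterocytes. Slc26a2 and Slc12a7 have means of at least 2272 and 2243 in every cell type, but Slc26a2 stands at 267 in EEC 1.

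The exchangers of inner membranes marked other cell types. Slc9a9 (NHE9, of endosomes) stood at 708, 427, 628, 753 and 427 normalized counts in tuft cells, above all other libraries, of which EEC 1 came closest. Stem cells had 12.1, 70.3 and 59.8, SecPDG 0, 108, 43.6 and 68.3, enterocytes 199.5, 159, 188, 164 and 116 and EECs 412.5 and 201. It rose in tuft cells over stem cells (3.58 ± 0.45 SE, adjusted p = 1.30e-08) and over SecPDG (3.50 ± 0.43 SE, adjusted p = 1.77e-08), with an estimated background of 1.54% of the tuft mean. The rise in enterocytes was smaller (1.75 ± 0.52 SE, adjusted p = 0.00396, background 10.8%) and was lost without Stem 1, Stem 3, Enterocyte 1 or Enterocyte 3 (adjusted p up to 0.0340).

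Slc9a7 (NHE7, of the trans-Golgi network) was highest in both EEC libraries, at 256 and 429.5 normalized counts, and the highest of all other libraries had 71.5. Stem cells had 5.66, 0 and 2.14, AbsPro 2.24, 0 and 0, SecPDG 68.9, 22.3, 16.9 and 16.6, tuft cells 6.45, 40, 46.7, 43.8 and 16.8 and enterocytes 23.2, 71.5, 51.3, 22.9 and 46.8. The difference of EECs from stem cells was 7.10 ± 0.90 SE, adjusted p = 6.09e-09, with an estimated background of 5.61%. Without EEC 1 the log2 fold change was 7.23 and without EEC 2 it was 6.64, both with an adjusted p under 0.01, but the mean over the remaining libraries was then under 50. AbsPro held 3 counts in all, so that enterocytes were 51.4 times as high (95% exact counting interval 17.3 to 252), and the background was 35.4% of the enterocyte mean.

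Slc9a4 (NHE4, best known from the acid-secreting cells of the stomach) was low, with 38.8, 0 and 0 normalized counts in stem cells, while tuft cells had 5.16, 92.0, 40.1, 87.5 and 7.96, AbsPro 40.3, 0 and 40.6 and SecPDG 0, 9.20, 5.34 and 4.14. Enterocytes had 122, 147, 193, 42.2 and 55.6 and EECs 401 and 41.0. It rose in enterocytes (3.25 ± 0.86 SE, adjusted p = 0.00149, background 18.3% of the mean), a call not made by DESeq2 (adjusted p = 0.0142) or the earlier fit (adjusted p = 0.0925) or without Stem 2, Stem 3 or EEC 1, and in EECs (4.06 ± 0.96 SE, adjusted p = 4.86e-04), the latter not without EEC 1. Slc9a5 passed in no comparison, with cell type means of 121 to 261.

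Per kb of exon, the make-up of the sodium-proton exchangers held more of the apical exchangers in enterocytes than in stem cells. Slc9a2 made up 15.5% of the summed level in stem cells and 31.7% in enterocytes, and Slc9a3 0.146 and 11.5%. Slc9a9 made up 19.4% in tuft cells. The summed level per kb itself ranged over libraries from 826 to 1118 in stem cells and from 874 to 1276 in enterocytes, which overlapped.

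**Figure D3:**
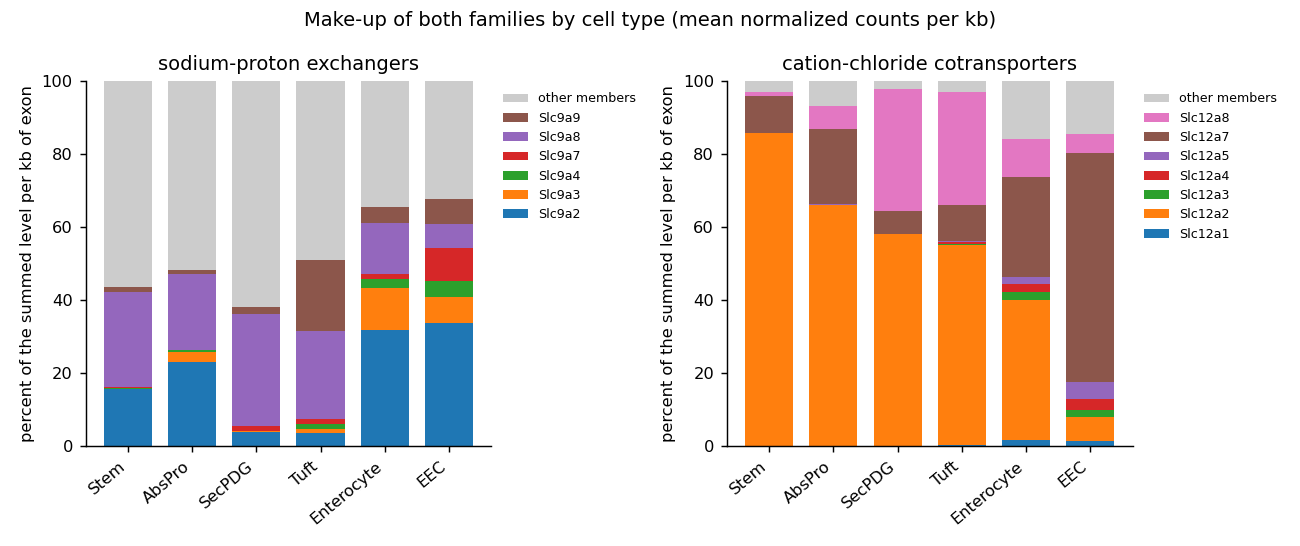
Share of each gene in the summed mean level per kb of exon, in percent, with a few genes of each family joined as other members, for the sodium-proton exchangers (left) and the cation-chloride cotransporters (right) in the 6 cell types. Slc9a2 and Slc9a3 take larger shares in enterocytes and EECs, and Slc12a2 goes from 85.7% in stem cells to 6.57% in EECs (15.4% in EEC 1 and 1.97% in EEC 2).

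The scaffold proteins, which tether Slc9a3 and other membrane proteins to the cytoskeleton, differed from each other. Slc9a3r1 (NHERF1) was among the highest members per kb, with means of 1736 to 2949 normalized counts and no call in any comparison. Slc9a3r2 (NHERF2) was a gene of SecPDG and tuft cells, with 753, 1336, 1147 and 939.7 in SecPDG and 700.4, 852, 969.6, 699 and 1320 in tuft cells. In the other cell types no library passed 157, with 67.1, 78.5 and 29.9 in stem cells and 155 and 0 in EECs. It rose over stem cells in SecPDG (4.15 ± 0.44 SE, adjusted p = 1.25e-10) and tuft cells (3.96 ± 0.43 SE, adjusted p = 2.00e-10), and AbsPro was below SecPDG (-3.48 ± 0.42 SE, adjusted p = 1.38e-08). Its share of both scaffolds per kb was 32.5% in SecPDG and 28.2% in tuft cells against 2.29% in stem cells. The goblet and SecPDG markers, whose sums are given above, were also high in these cell types, and their part in the tuft level was not tested.

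Slc26a3 (DRA, the apical chloride-bicarbonate exchanger of the colon, chromosome 12, 31390871 to 31473917) was the highest anion exchanger per kb in AbsPro and enterocytes. The annotated gene begins upstream of the RefSeq start used for the promoter above. Stem cells had 329, 712 and 746 normalized counts, AbsPro 2628, 2180 and 3688 and enterocytes 3614, 4719, 3425, 5219 and 3232. SecPDG had 18.0, 78.8, 24.0 and 75.5, tuft cells 73.5, 143, 109.5, 132.5 and 76.0 and EECs 380.1 and 4690. Stem cells thus lay between the lines, with every absorptive library above them and every SecPDG and tuft library below. It rose in AbsPro (2.24 ± 0.42 SE, adjusted p = 9.51e-04, 4.72-fold) and enterocytes (2.76 ± 0.41 SE, adjusted p = 4.27e-07, 6.75-fold) and fell in SecPDG (-3.68 ± 0.57 SE, adjusted p = 2.95e-06, 12.8-fold lower) and tuft cells (-2.51 ± 0.48 SE, adjusted p = 6.84e-05, 5.69-fold lower). The difference between enterocytes and AbsPro did not pass (0.52 ± 0.36 SE, adjusted p = 0.208). AbsPro lay 60.5-fold above SecPDG (5.92 ± 0.54 SE, adjusted p = 9.23e-12), the largest difference between the progenitors among the members. In EECs the call (2.11 ± 0.46 SE, adjusted p = 1.94e-04) rested on EEC 2, without which the log2 fold change was -0.66, and EEC 2 also had the higher enterocyte markers (138100 against 22910), whose part was not tested.

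Slc26a2, which carries sulfate into cells, was the other abundant anion exchanger. It had means of 2272 to 6201 normalized counts and passed in no comparison, with 5264 to 7776 in AbsPro libraries and 2234 to 3416 in stem cells. The EEC mean averaged unlike libraries, with 267 in EEC 1 and 4276 in EEC 2. Slc26a1, a sulfate exchanger of the blood side, had 192, 197 and 231 in AbsPro and 5.00, 36.8, 0 and 17.6 in SecPDG, without overlap (3.96 ± 0.74 SE, adjusted p = 1.00e-04). Stem cells had 41.2, 136 and 116, tuft cells 39.98, 78.7, 68.1, 69.3 and 31.8, enterocytes 175, 136, 85.4, 134 and 81.9 and EECs 0 and 469. Slc26a1 overlaps Idua on the opposite strand, and the counts do not use strand, so that reads of the pair cannot be told apart. Slc26a6 (PAT1, an apical anion exchanger of the small intestine) was low, at 27.4 ± 4.51 (SD, n = 3) in stem cells and 115 ± 31.9 (SD, n = 5) in enterocytes (2.04 ± 0.63 SE, adjusted p = 0.00539, background 10.8%), a call that was lost without any of 8 libraries (adjusted p up to 0.0441) and with the earlier fit (adjusted p = 0.0947).

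Slc26a4 (pendrin, an exchanger of chloride, iodide and bicarbonate known from thyroid, inner ear and kidney) had the largest fold change among all calls. EECs had 422 and 291 normalized counts, and stem cells 0, 0 and 3.56, AbsPro 22.4, 0 and 2.97 and SecPDG 0, 10.5, 0 and 3.105. Tuft cells had 0, 62.7, 64.1, 65.6 and 19.4 and enterocytes 119, 122, 122, 37.4 and 55.6, all below EECs. The difference of EECs from stem cells was 8.02 ± 1.07 SE, adjusted p = 2.16e-08, with an estimated background of 5.6%. Without EEC 1 it was 7.60 and without EEC 2 it was 8.29, both with an adjusted p under 0.01, although without EEC 1 the mean over all libraries was under 50. Enterocytes were higher than stem cells too (6.08 ± 1.24 SE, adjusted p = 8.41e-05, background 17.4%), with the same loss of the minimum mean without EEC 1.

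The remaining anion exchangers were low genes of other tissues. Slc26a8, a testis exchanger, had 263, 204, 319, 71.1 and 117 normalized counts in enterocytes and 120.3 and 17.9 in EECs, against 17.0, 0.676 and 12.1 in stem cells, while tuft cells had 201, 135, 98.8, 108 and 30.9, AbsPro 0, 39.5 and 10.9 and SecPDG 0, 39.4, 0 and 11.4. It rose in tuft cells (3.52 ± 0.86 SE, adjusted p = 0.00162, background 9.51%), though not without Stem 2 (adjusted p = 0.0283) or Stem 3 (adjusted p = 0.0151), and in enterocytes (4.34 ± 0.78 SE, adjusted p = 1.13e-05, background 11.1%). Slc26a9, of stomach and airway, had 221, 169.7, 195, 101 and 102 in enterocytes and 160.4 and 12.8 in EECs, against 12.1, 1.35 and 2.85 in stem cells, while tuft cells had 0, 137, 54.8, 101 and 21.2, AbsPro 0, 0 and 2.97 and SecPDG 0, 28.9, 0 and 4.14. Enterocytes were higher than stem cells (4.91 ± 0.89 SE, adjusted p = 1.36e-05, background 15.5%), and 184 times as high as AbsPro, which held 3 counts in all (95% exact counting interval 62.6 to 893). Slc26a5 (prestin, the motor protein of outer hair cells) and Slc26a7 had no count in any stem cell library, and from 7 to 20 counts over all libraries of AbsPro or SecPDG. Slc26a10 and Slc26a11 were higher in EECs than in SecPDG only, with means of 304 against 57.8 and 263 against 44.6, and both calls were lost without EEC 1. Slc26a10 shares its locus with B4galnt1 on the other strand.

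Slc4a7 (NBCn1, a sodium-bicarbonate cotransporter, chromosome 14, 14702279 to 14799940) was the highest bicarbonate transporter per kb in SecPDG and tuft cells. SecPDG had 10510, 22340, 10300 and 11370 normalized counts, tuft cells 6590, 8665, 6161, 7996 and 8892 and stem cells 1748, 2243 and 2247. AbsPro had 5048, 3082 and 7473, above all stem cell libraries and overlapping with tuft cells, and enterocytes ran from 1279 to 4844. It rose over stem cells in SecPDG (2.71 ± 0.50 SE, adjusted p = 6.16e-05) and in tuft cells (1.88 ± 0.47 SE, adjusted p = 0.00209), but the latter was not called by the earlier fit (adjusted p = 0.0148) or without Stem 1 (adjusted p = 0.0200). EECs had 267 and 5921 and were below SecPDG (-2.11 ± 0.57 SE, adjusted p = 0.00213), a call that was lost without EEC 1 (log2 fold change -1.37) and stronger without EEC 2 (-5.67).

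Slc4a4 (NBCe1, the electrogenic sodium-bicarbonate cotransporter of the blood side) moved the other way. Stem cells had 4385, 4771 and 4803 normalized counts, AbsPro 4764, 4540 and 4822, SecPDG 1082, 1860, 1387 and 1767 and tuft cells 976, 1171, 1035, 898 and 1309. The absorptive progenitors matched stem cells closely, and neither overlapped with the secretory cell types. Slc4a4 fell in SecPDG (-1.61 ± 0.33 SE, adjusted p = 3.02e-04), tuft cells (-2.11 ± 0.31 SE, adjusted p = 5.35e-07) and EECs (-2.18 ± 0.44 SE, adjusted p = 5.99e-05). Per kb, Slc4a7 made up 18.1% of the bicarbonate transporters in stem cells and 61.9% in SecPDG, and Slc4a4 32.1 and 5.48%.

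Slc4a2 (AE2, a chloride-bicarbonate exchanger of the blood side) passed in no comparison, with means of 2774 to 5325 normalized counts, and overlaps Fastk on the other strand. Slc4a8 (NDCBE, a sodium-driven chloride-bicarbonate exchanger known from neurons) was highest in tuft cells and EECs. Tuft cells had 565, 453, 777, 729 and 358 normalized counts, EECs 649 and 1616 and enterocytes 400.5, 309, 466.2, 129 and 212. Stem cells had 20.2, 44.6 and 54.8, AbsPro 10.4, 18.9 and 38.6 and SecPDG 4.00, 68.3, 26.7 and 47.6, and no tuft library overlapped with them. It rose over stem cells in tuft cells (3.81 ± 0.48 SE, adjusted p = 1.06e-08, background 5.5%) and EECs (4.83 ± 0.52 SE, adjusted p = 5.51e-11, background 6.95%), and over SecPDG in tuft cells (4.04 ± 0.48 SE, adjusted p = 4.17e-09). All 3 calls held when any library was left out. The estimated background took 20.6% of its enterocyte mean.

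**Figure D4:**
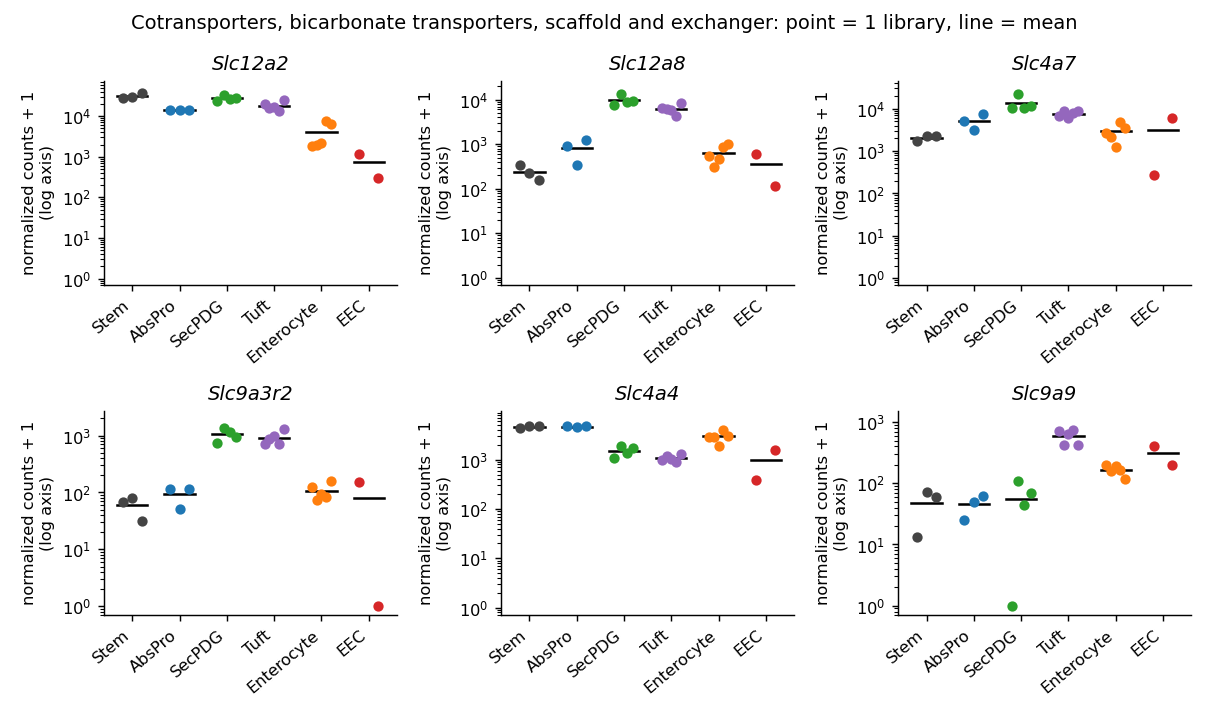
Normalized counts plus 1 on a log axis of 6 members in each of the 22 libraries, by cell type, with points for libraries and lines for means. Slc12a8, Slc4a7 and Slc9a3r2 are highest in SecPDG and tuft cells, Slc9a9 in tuft cells, Slc12a2 is high in all cell types but enterocytes and EECs, and Slc4a4 is higher in stem cells and AbsPro than in SecPDG and tuft cells.

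Among the low bicarbonate transporters, Slc4a3 (AE3, of brain and heart) had 232, 190.3, 243, 77.1 and 118.5 normalized counts in enterocytes and 462 and 169 in EECs, against 5.66, 1.35 and 34.2 in stem cells, while tuft cells had 20.6, 235, 226, 138.5 and 38.9, AbsPro 14.2, 0 and 20.8 and SecPDG 61.9, 42.04, 0 and 20.7. Slc4a5 (NBCe2) had 258, 169.7, 284, 56.6 and 142 in enterocytes and 639.8 and 7.69 in EECs, against 19.4, 0 and 2.85 in stem cells, while tuft cells had 0, 181, 160.3, 109 and 28.3, AbsPro 4.48, 12.9 and 4.96 and SecPDG 3.00, 21.02, 11.6 and 13.4. Both rose in tuft cells, enterocytes and EECs over stem cells, with log2 fold changes of 3.17, 3.62 and 4.42 for Slc4a3 and 3.71, 4.70 and 5.37 for Slc4a5. The tuft call of Slc4a3 was lost without Stem 1, Stem 2 or Tuft 2 (adjusted p up to 0.0340). That of Slc4a5 was lost without Stem 2, Stem 3, AbsPro 1, AbsPro 3, Tuft 2, Tuft 3 or Tuft 4 (adjusted p up to 0.0510). With the earlier fit neither tuft call passed (adjusted p = 0.0382 and 0.0365). Their estimated background in enterocytes was 21.5 and 15.5% of the mean. The EEC calls of both were lost without EEC 1 (adjusted p = 0.0122 for Slc4a3 and 1.00 for Slc4a5).

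Slc4a1 (AE1 or band 3, the anion exchanger of red blood cells) had 213, 154, 262, 92.8 and 137.5 normalized counts in enterocytes and 204 and 48.7 in EECs, against 0, 18.3 and 0 in stem cells, while tuft cells had 73.5, 125, 52.1, 118 and 15.9, AbsPro 31.4, 0 and 5.95 and SecPDG 0, 27.6, 16.0 and 2.07. It rose in enterocytes (4.68 ± 0.83 SE, adjusted p = 8.88e-06, background 13.6%), tuft cells and EECs, the last not without Stem 3 or EEC 1 (log2 fold change 2.71 without EEC 1). Of the 5 comparisons in which Slc4a1 passed, 3 had an estimated background under 20%. The tuft call was lost without Stem 1, Stem 3, SecPDG 2, Tuft 2 or Tuft 4 (adjusted p up to 0.0494) and with the earlier fit (adjusted p = 0.0554). Of the 6 erythroid markers, the 4 globin genes were at 0 in 21 of the 22 libraries and Hbb-bs was at 1.22 in the other. Alas2 was at 424 in EEC 1 and 3263 in EEC 2, and the part of red blood cells in the Slc4a1 level was not tested.

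Slc4a9 (AE4) had 159, 147, 228, 72.3 and 71.7 normalized counts in enterocytes and 386 and 0 in EECs, against 35.6, 0 and 31.3 in stem cells, while tuft cells had 28.4, 96.0, 65.4, 135 and 30.9, AbsPro 10.4, 0.859 and 21.8 and SecPDG 16.0, 11.8, 0 and 3.105. Slc4a10 (a sodium-bicarbonate transporter of neurons) had 207, 177, 232, 44.6 and 52.7 in enterocytes and 145 and 108 in EECs, against 27.5, 14.9 and 37.7 in stem cells, while tuft cells had 0, 109, 94.8, 109 and 34.5, AbsPro 0.747, 0 and 17.8 and SecPDG 0, 6.57, 0 and 6.21. Slc4a11 (of the corneal endothelium) had 95.9, 133, 150.1, 50.6 and 145 in enterocytes and 298 and 0 in EECs, against 36.4, 0 and 0 in stem cells, while tuft cells had 0, 50.7, 89.5, 70.5 and 13.3, AbsPro 3.73, 0 and 5.95 and SecPDG 0, 15.8, 0 and 12.4. All 3 were higher in each enterocyte library than in any stem cell library, with log2 fold changes of 2.66, 2.42 and 3.37 and estimated backgrounds of 13.1, 19.8 and 14.3%, and none of these 3 calls passed with DESeq2 (adjusted p = 0.0197, 0.0153 and 0.0464). Slc4a9 and Slc4a11 were at 0 in EEC 2, so that their EEC calls rested on EEC 1 alone. The 5 neuronal and glial markers, summed, moved with these genes, at 31.5 to 70.4 in stem cells, 135 to 352 in enterocytes, 521 in EEC 1 and 105 in EEC 2, and their part was not tested.

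Slc12a2 (NKCC1, which brings chloride in on the blood side for secretion) was the highest member per kb in stem cells, AbsPro, SecPDG and tuft cells. Its libraries stood at 28340, 29360 and 36590 normalized counts in stem cells, 24240, 32480, 26270 and 27300 in SecPDG and 19630, 15880, 17190, 13020 and 24610 in tuft cells. AbsPro had 14550, 14520 and 14540, and enterocytes 1868, 1937, 2206, 7586 and 6350 and EECs 1192 and 292. The AbsPro libraries were all below those of stem cells and SecPDG and above those of enterocytes, although the difference between stem cells and AbsPro did not pass (-1.11 ± 0.50 SE, adjusted p = 0.438). It fell from stem cells to enterocytes (-2.98 ± 0.44 SE, adjusted p = 4.73e-07, 7.87-fold lower), from AbsPro to enterocytes (-1.86 ± 0.44 SE, adjusted p = 8.63e-04) and from stem cells to EECs (-5.47 ± 0.75 SE, adjusted p = 4.39e-08, 44.2-fold lower). All 3 calls held in each of the 29 alternative settings, but the size of the EEC difference depended on the library, at -6.91 without EEC 1 and -4.72 without EEC 2 on the log2 scale, and was -4.36 with DESeq2. Enterocyte 4 and Enterocyte 5 were above the other 3 enterocyte libraries, and they also had the lowest estimated background among enterocytes (2.37 and 3.72 per kb against 6.01 to 6.98), whose part was not tested.

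Slc12a8, a less studied member of the family (chromosome 16, 33517328 to 33664135), carried the largest rise in SecPDG. SecPDG had 7759, 13030, 8922 and 9088 normalized counts and tuft cells 6403, 6056, 5767, 4221 and 8357. Stem cells had 340.3, 227 and 160.2, AbsPro 914, 342 and 1262, enterocytes 550.5, 304, 461, 881 and 1024 and EECs 605.5 and 117. The lowest SecPDG or tuft library, at 4221, was above the highest of all others, at 1262. The log2 fold change from stem cells was 5.33 ± 0.49 SE, adjusted p = 1.72e-12 in SecPDG (40.3-fold) and 4.68 ± 0.47 SE, adjusted p = 1.26e-11 in tuft cells (25.6-fold), while AbsPro lay 11.6-fold below SecPDG (-3.54 ± 0.43 SE, adjusted p = 1.82e-08). A smaller rise in enterocytes (1.41 ± 0.45 SE, adjusted p = 0.00665) was lost with any of 7 libraries left out. As for Slc9a3r2, goblet and SecPDG markers were high in tuft cells too, and their part in the tuft level was not tested.

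The potassium-chloride cotransporters, which let chloride out with potassium, included Slc12a7 (KCC4). It had means of 2243 to 5576 normalized counts, with 1725 in EEC 1 and 9427 in EEC 2, and its only call, EECs over SecPDG, had a log2 fold change of 1.27 that turned to -0.44 without EEC 2. Slc12a4 (KCC1) was low, at 12.5 ± 18.7 (SD, n = 3) in stem cells and 127 ± 55.8 (SD, n = 5) in enterocytes (3.45 ± 0.81 SE, adjusted p = 4.30e-04, background 15.5%), a call lost without Stem 2 (adjusted p = 0.0123) or Stem 3 (adjusted p = 0.0110).

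Slc12a5 (KCC2, of neurons) had 247, 225.5, 264, 88.0 and 184 normalized counts in enterocytes and 919 and 118 in EECs, against 14.6, 25.0 and 26.4 in stem cells, while tuft cells had 157, 149, 69.5, 92.4 and 24.8, AbsPro 11.2, 5.16 and 44.6 and SecPDG 0, 22.3, 6.23 and 15.5. It rose in enterocytes (3.16 ± 0.64 SE, adjusted p = 7.59e-05, background 15.9%) and EECs (4.43 ± 0.68 SE, adjusted p = 4.64e-07, background 7.78%), the latter not without EEC 1. The kidney cotransporters also had higher means in enterocytes, EECs and tuft cells than in the other cell types, but neither passed between tuft cells and SecPDG. Slc12a1 (NKCC2) had 199.5, 153, 109, 66.3 and 114 in enterocytes and 157 and 83.3 in EECs, against 0, 0 and 5.70 in stem cells, while tuft cells had 41.3, 131, 36.1, 68.0 and 18.6, AbsPro 3.73, 0 and 25.8 and SecPDG 0, 31.5, 11.6 and 9.31. Slc12a3 (NCC) had 144, 227, 266, 75.9 and 135 in enterocytes and 294 and 28.2 in EECs, against 8.89, 2.71 and 0 in stem cells, while tuft cells had 23.2, 85.3, 175, 102 and 12.4, AbsPro 11.2, 0 and 1.98 and SecPDG 25.0, 30.2, 6.23 and 20.7. The enterocyte libraries of both were all above those of stem cells, AbsPro and SecPDG, with log2 fold changes from stem cells of 5.93 and 5.50 and backgrounds of 19.8 and 14.3%. Of the 5 comparisons in which Slc12a1 passed, only 2 had an estimated background under 20%.

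Per kb of exon, Slc12a2 made up 85.7% of the summed level of the cation-chloride cotransporters in stem cells. Its share was 66.0% in AbsPro and 38.4% in enterocytes, and 58.0% in SecPDG, 54.9% in tuft cells and 6.57% in EECs. Slc12a8 took 33.6% in SecPDG and 30.8% in tuft cells against 1.09% in stem cells, and Slc12a7 took 62.6% in EECs. The EEC shares averaged unlike libraries, with Slc12a2 at 15.4% in EEC 1 and 1.97% in EEC 2 and Slc12a7 at 28.2 and 80.5%. The summed level per kb was 5149 to 6320 in stem cell libraries and 1072 to 2527 in enterocyte libraries, which did not overlap. The anion exchangers summed to 1942 to 3130 per kb in enterocytes and 1528 to 2387 in AbsPro, against 473 to 788 in stem cells and 405 to 610 in SecPDG.

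The low members and the background families were highest in the same cell types. For the 21 members with a mean under 150 over all libraries, a limit chosen after the values were seen, the summed normalized counts were 1417 to 3741 in enterocytes, 6822 and 2199 in the EEC pair and 607 to 2326 in tuft cells. Stem cells had 451 to 546, SecPDG 183 to 586 and AbsPro 460 to 749. The background families, at the levels per kb given above, were higher in these 3 cell types as well, except that Tuft 5 (0.648) lay just below SecPDG 2 (0.674). The immune, stromal, endothelial and neuronal and glial markers, without the erythroid ones, summed to 1109 to 2575 in enterocytes and 1783 to 4185 in tuft cells. They summed to 5027 in EEC 1 and 1701 in EEC 2. Stem cells had 209 to 367, SecPDG 54.0 to 267 and AbsPro 85.1 to 1480. A large part of the tuft sums came from 1 immune marker, Ptprc, at 1692, 1012, 1454, 3173 and 1497. Whether tuft cells themselves carried it was not tested. Of all genes with a mean of 50 to 150, 49.7% were higher in enterocytes than in stem cells, and of the members in that range 16 of 19. Of all genes with a mean of 150 or more, 8.6% were higher and 25.4% lower, and of the members 6 and 1 of 21. In EECs the shares were 48.8% of all genes and 12 of 19 members in the low range, and in tuft cells 27.5% and 6 of 19. How much of the rise of the low members is such background was not tested beyond the shares given with each gene.

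**Figure D5:**
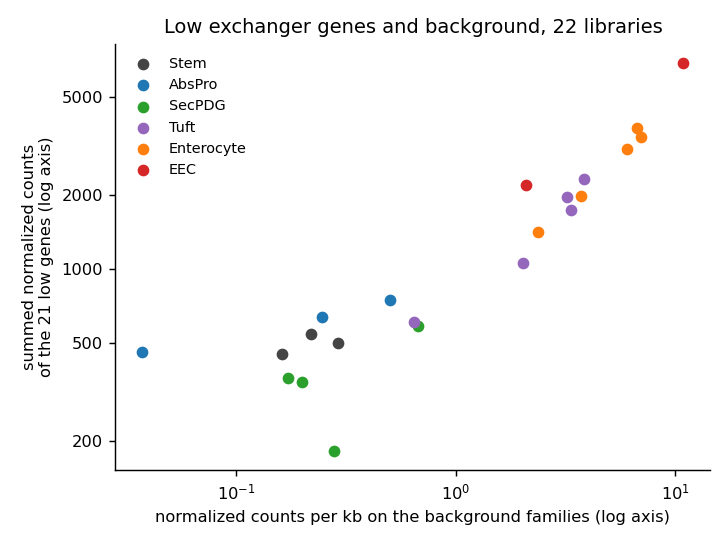
Summed normalized counts of the 21 low members (vertical, log axis) against normalized counts per kb on the background families (horizontal, log axis), with a point for each of the 22 libraries coloured by cell type. Enterocyte, EEC and tuft libraries lie to the right, except Tuft 5, and reach up to 6822, while stem cell, AbsPro and SecPDG libraries lie to the left with at most 749.

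Partner genes of the exchangers were read from 3 lists. Of the sodium pump subunits, Atp1b1, of the pump of the blood side, passed in no comparison, and Atp1b3 fell from 616 normalized counts in stem cells to 291 in enterocytes (log2 fold change -1.07 ± 0.32 (SE), adjusted p = 0.00434). Of the 6 scaffolds and cofactors, Chp2, a cofactor of sodium-proton exchangers, rose in enterocytes from 143 to 815 (log2 fold change 2.52 ± 0.39 (SE), adjusted p = 1.24e-06), and Ahcyl1 (IRBIT), a regulator of Slc4a4 and Slc9a3, fell from 3708 to 1830. Pdzd3 fell in SecPDG, from 201 to 51.1, and AbsPro lay above SecPDG in both Pdzd3 (357) and Chp2 (488 against 44.5). Of the 8 kinases and adaptors that act on Slc12 cotransporters, Wnk2 rose in tuft cells (1566 to 3478) and fell in enterocytes (412), Wnk4 fell in enterocytes (2197 to 1124), and Stk39 (SPAK) fell in EECs (1317 to 415).

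For splicing and polyadenylation, the tests made few or no calls among all genes, so that the absence of calls among the members says nothing particular about them. The study itself, with other tests on the same libraries, reported many changes of both kinds, the most from stem cells to AbsPro. The few calls here therefore do not show that such changes are absent, and the reason for the difference was not tested. The skipped exon tables listed 87 events in members over the 5 comparisons, of which 53, in 14 members, had enough reads to be tested, and 0 passed edgeR's quasi-likelihood test at an adjusted p under 0.05 (1 at an unadjusted p under 0.05). Over all events the share called was 0.0% in AbsPro, SecPDG, tuft cells, enterocytes and EECs alike, and in EECs no event of a member had enough reads. The event with an unadjusted p under 0.05 (adjusted p = 0.693) was an exon of 83 bases of Slc26a3 (chromosome 12, 31453865 to 31453947 on mm10, plus strand), included at 77.9% in stem cells over 65 reads and at 100% in enterocytes over 252. The share of the distal polyadenylation site was listed 37 times and tested 34 times in 11 members, with limma, and 0 passed (1 at an unadjusted p under 0.05, Slc12a8 in SecPDG, with a share of 0.035 against 0.005, adjusted p = 0.815). Over all transcripts the share called was 0.0% in AbsPro and EECs, 0.0237% in SecPDG, 0.0408% in enterocytes and 0.0614% in tuft cells. Slc12a2 used its distal site at a mean share of 0.377 in stem cells, and the other means were 0.353 in AbsPro, 0.392 in enterocytes, 0.404 in tuft cells and 0.4 in SecPDG.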

How the data were processed

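RNA-seq counts, skipped exon counts and distal site shares were analysed for 22 libraries of 6 sorted cell types. The deposited counts are reads per gene for each library, which the authors made by aligning paired reads of 100 bases from a low-input library kit to mm10 with STAR 2.5.2a and counting without strand with HTSeq 0.6.1p1, so that reads of genes on opposite strands cannot be told apart. In each file 5 entries name no gene and were left out; 40.85 to 89.74% of counted reads were outside genes in them. The authors also deposited skipped exon counts from rMATS and distal polyadenylation site shares, a fraction per library, from DaPars. MAJIQ files hold pooled estimates of the authors and were not used, and no column of the authors' own comparisons (fold changes, p-values) was used.

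All 22 libraries entered a single fit by cell type in edgeR 4.0.16 (R 4.3.3), after filterByExpr and TMM scaling, with the quasi-likelihood F test and Benjamini-Hochberg adjustment over the 22781 genes tested. A gene was called at an adjusted p under 0.01 with a mean of at least 50 normalized counts. The form of the quasi-likelihood fit, the adjusted deviances of edgeR 4, was chosen to match earlier processing of these data, after its results and those of edgeR's earlier fit had both been seen. Members and gene lists were chosen with earlier results of these data known. Alternatives were DESeq2 1.42.0, other scalings, filters and thresholds, a fit of each pair of cell types alone, a replicate block, and leaving out each library. Slc26a3, Slc9a3, Slc12a2 and the called members with the largest absolute log2 fold change, up to 20 in all, were to be given in every library, and others by range or mean; some of the others are given in every library too, and were chosen after their values were seen. Skipped exons with at least 10 reads were tested with edgeR and distal shares with limma 3.58.1 on the log2 ratio with a pseudocount of 0.01, at an adjusted p under 0.05. The values of a few genes are not reported here, although counts over the members include them. Intervals and floors (3 counts) cover counting error only. Tested on simulated data for AbsPro against stem cells over 21612 genes, the test recovered 38% of 4-fold and 2% of 2-fold changes and called 0 unchanged genes. The simulation gave all genes the same spread and no other difference between cell types. It therefore cannot show how often the real, less even libraries give false calls. Depth was 4122122 to 22462518 counts on genes. Promoters came from RefSeq (GRCm38.p6), and gene positions and exon lengths from the GENCODE annotation of that build.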

Additional observations from a re-analysis of the deposited data

Results flagged for a closer look

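Among 60 groups of 4 or 5 libraries, each a member in a cell type, 2 held a library far from the others. In tuft cells, Slc26a4 stood at 0.0 normalized counts in Tuft 1 and at 19.4 to 65.6 in the other 4 libraries. Slc4a10 stood at 0.0 in Tuft 1 and at 34.5 to 109 in the other 4. Chance flags about 1 in 20 groups.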

How the results depend on the processing

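With edgeR's earlier quasi-likelihood fit, an alternative added after the data were seen, members called went from 2 to 0 in AbsPro, from 14 to 7 in tuft cells and from 23 to 9 in enterocytes against stem cells, from 19 to 4 between enterocytes and AbsPro and from 28 to 15 between EECs and SecPDG. In fits of each pair of cell types alone, they went from 2 to 7 in AbsPro and from 20 to 8 in EECs against stem cells, from 3 to 5 between tuft cells and SecPDG, from 28 to 18 between EECs and SecPDG and from 8 to 13 between AbsPro and SecPDG. Between tuft cells and SecPDG, DESeq2 called 9 and an adjusted p under 0.05 gave 14. With each library left out in turn, counts ran from 1 to 5, 6 to 8, 9 to 19, 15 to 25 and 10 to 24 for AbsPro, SecPDG, tuft cells, enterocytes and EECs against stem cells, 14 to 23 for enterocytes against AbsPro, 2 to 9 for tuft cells and 10 to 28 for EECs against SecPDG, and 8 to 10 for AbsPro against SecPDG. The lowest EEC counts came without EEC 1. Skipped exon and distal share calls were 0 under each setting. Of 3567 recomputed fold changes of calls, 3255 were called again with the same sign, 302 were no longer called and 10 changed sign, each without 1 EEC library. Without EEC 1 they were, with the highest value without any other library, Slc12a4 (-1.30, up to 6.48), Slc4a11 (-6.46, up to 9.89) and Slc4a9 (-7.41, up to 4.16) against stem cells, and Slc12a4 (-1.25, up to 5.13), Slc4a11 (-5.70, up to 5.54), Slc4a5 (-0.81, up to 5.75) and Slc4a9 (-5.92, up to 5.70) against SecPDG. Without EEC 2 they were Slc26a3 (-0.66, up to 2.81) against stem cells and Slc12a7 (-0.44, up to 1.81) and Slc26a1 (-6.65, up to 5.02) against SecPDG. The cause was not tested.

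With a replicate block, 9 members were called between tuft cells and SecPDG, and 120 of 123 called fold changes were kept. The counts were 2, 8, 18, 22 and 20 in AbsPro, SecPDG, tuft cells, enterocytes and EECs against stem cells, 21 in enterocytes against AbsPro, 26 in EECs and 8 in AbsPro against SecPDG. The replicate numbers did not pair the libraries: deviations of same-numbered libraries correlated with a median r of -0.002, and 16 of 44 pairs exceeded 0.1. Depth limits low genes most in enterocytes and EECs, where the smallest libraries held 5950619 and 4122122 counts.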
